A study of Mus musculus with 30 samples.

Results

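The genes described here make or remove reactive oxygen in the lung: the NADPH oxidase Nox4, the phagocyte oxidase subunits Cybb, Cyba, Ncf1 and Ncf4, and the antioxidant genes Nqo1, Gclc, Gclm and Sod3. They are 9 of the 22180 mouse genes that had a probe set of their own on the arrays, and they were chosen by name for their role. For each gene the probe set annotated to that symbol alone was used, and each of the 9 had exactly 1. In bleomycin-injured lungs of 16-week Zmpste24-/- mice, Nqo1 was 2.36-fold and Nox4 1.92-fold the level of saline lungs of the same genotype and age, whereas Cybb, Cyba, Ncf1 and Ncf4 had the highest group means in lungs of 82-week WT mice. The Nox4 difference did not reach an adjusted p under 0.05 without 1 of the saline arrays, nor under 3 of 12 other settings. That of Nqo1 reached it in all of these.

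NADPH oxidases pass electrons from NADPH to oxygen. Nox4 needs only the membrane partner p22phox (Cyba), is made by fibroblasts, epithelium and endothelium and releases mainly hydrogen peroxide, while gp91phox (Cybb) in macrophages and neutrophils also has to recruit the cytosolic subunits p47phox (Ncf1) and p40phox (Ncf4) before it makes superoxide. On the other side, extracellular superoxide dismutase (Sod3) converts superoxide to hydrogen peroxide, both subunits of glutamate-cysteine ligase (Gclc, catalytic, and Gclm, modifier) start glutathione synthesis, and the quinone reductase Nqo1 is a classical target of the transcription factor Nrf2, as are Gclc and Gclm. In lung fibrosis NOX4 is best known from myofibroblasts.

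The study asked how accelerated aging through loss of Zmpste24, the protease that matures lamin A, bears on lung fibrosis. Whole lungs of c57BL/6 mice were taken 21 days after oropharyngeal bleomycin or vehicle (saline), and RNA was hybridized to Affymetrix whole-transcript arrays at 2 times, called set 1 and set 2 in the labels. Set 1 held Zmpste24-/- mice of 16 weeks with bleomycin, Zmpste24-/- mice of 16 weeks with saline, Zmpste24-/- mice of 7 weeks with saline, WT mice of 16 weeks with bleomycin and WT mice of 16 weeks with saline, and set 2 held Zmpste24-/- mice of 7 weeks with bleomycin, Zmpste24-/- mice of 7 weeks with saline, WT mice of 82 weeks with bleomycin, WT mice of 82 weeks with saline and WT mice of 7 weeks with saline. Each of these 10 groups had 3 arrays, 30 in all, and values are log2 signals as deposited. The study's methods give 3 different biological samples for each group, while the labels do not say that replicates are separate animals. The p-values measure the spread between these arrays. The deletion is constitutive, and the labels name the 16-week WT mice young in the titles and old in the descriptions, so that their age is taken from the age label alone.

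A difference was called at an adjusted p under 0.05 in limma (moderated test on a fit of the 10 group means, Benjamini-Hochberg adjustment over all 22180 genes). Some arrays went against their labels or stood apart. Zmpste24 ran from 7.93 to 8.68 in the 15 WT arrays and from 5.29 to 6.56 in 12 Zmpste24-/- arrays, but stood at 7.55 to 7.93 in 3 Zmpste24-/- arrays, 7-week saline replicate 2 of set 1 and replicates 2 and 3 of set 2. Replicate 3 of the 16-week Zmpste24-/- saline lungs resembled the rest least: averaged over its pairs with all other arrays, Pearson r was 0.944, while the remaining 29 had averages of 0.968 to 0.981. Xist, which is transcribed from the inactive X chromosome of females, was at 9.18 to 10.61 in 9 arrays and at 4.14 to 4.80 in 21. The 9 included 0 of 3 injured and 1 of 3 saline 16-week Zmpste24-/- lungs, 2 of 3 injured 16-week WT lungs, 2 of 3 injured 7-week Zmpste24-/- lungs and none of the 82-week WT lungs. The mean of 5 squamous epithelium markers was 7.97 to 8.20 in 5 of the 6 saline lungs of 7-week Zmpste24-/- mice and at most 5.13 in the rest of the arrays, and that of 6 skeletal muscle markers behaved alike. All saline lungs of set 2 from these mice, the controls of the injured 7-week lungs, were among the 5. Lung markers were high throughout, with a mean of 6 alveolar type 2 markers of 10.55 to 11.87 in all arrays.

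Promoter sequence was at hand for 6 of the 9 genes from RefSeq (GRCm38.p6, 250 bases before and 50 after the annotated start). The 4 shown are those of Nqo1 and Nox4, which rose together, and of Gclm and Cybb, which alone held a motif named below. Those of Cyba and Ncf1 were searched as well, held neither motif and are not shown. The windows were searched on both strands for the core of the antioxidant response element bound by Nrf2 (TGACNNNGC), which 12.4% of 32817 mouse promoters of this length hold, and for a core of the myeloid factor PU.1 (GAGGAA), which 28.3% hold. The first was found in Gclm alone, 134 to 126 bases before the start, and the second in Cybb alone, at bases 10 to 15 of the transcript, both on the opposite strand and printed in capitals. The motifs do not overlap each other, and a match is a description of the letters and no sign of binding. The windows are chr8:107403156-107403455 (minus strand) for Nqo1, chr7:87246399-87246698 (plus) for Nox4, chr3:122245307-122245606 (plus) for Gclm and chrX:9469275-9469574 (minus) for Cybb, which lies inside the annotated span of that gene.
Nqo1: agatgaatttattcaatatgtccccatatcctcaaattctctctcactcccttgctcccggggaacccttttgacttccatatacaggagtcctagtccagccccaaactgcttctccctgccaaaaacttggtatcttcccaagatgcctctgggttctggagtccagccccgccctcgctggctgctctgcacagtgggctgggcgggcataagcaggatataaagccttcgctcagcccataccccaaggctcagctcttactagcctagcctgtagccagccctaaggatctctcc
Nox4: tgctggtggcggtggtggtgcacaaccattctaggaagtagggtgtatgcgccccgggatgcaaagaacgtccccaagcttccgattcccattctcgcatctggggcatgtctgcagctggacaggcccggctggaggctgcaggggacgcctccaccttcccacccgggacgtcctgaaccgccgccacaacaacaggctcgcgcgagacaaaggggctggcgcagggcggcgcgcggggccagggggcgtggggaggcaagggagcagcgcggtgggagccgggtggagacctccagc
Gclm: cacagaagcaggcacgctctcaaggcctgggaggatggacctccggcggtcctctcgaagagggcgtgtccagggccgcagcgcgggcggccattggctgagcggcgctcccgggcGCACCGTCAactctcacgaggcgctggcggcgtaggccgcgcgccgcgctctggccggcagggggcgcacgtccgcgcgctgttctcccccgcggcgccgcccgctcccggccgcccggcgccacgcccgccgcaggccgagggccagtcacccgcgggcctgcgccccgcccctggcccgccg
Cybb: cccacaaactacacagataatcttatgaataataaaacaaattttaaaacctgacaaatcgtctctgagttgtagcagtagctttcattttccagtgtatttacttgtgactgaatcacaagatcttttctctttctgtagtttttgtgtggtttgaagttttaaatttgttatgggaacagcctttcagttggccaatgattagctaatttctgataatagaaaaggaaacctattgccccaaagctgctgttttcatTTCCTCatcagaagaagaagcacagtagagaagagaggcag

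Nox4 (chromosome 7, 87244430 to 87398710) was highest in the injured 16-week Zmpste24-/- lungs. It measured 10.26, 10.35 and 10.37 in these lungs and 9.82, 9.61 and 8.71 in saline lungs of the same genotype and age. The groups did not overlap, and the saline lungs were spread over more than 1 log2 unit, with replicate 3, the array that correlated least with the rest, lowest. In 7-week Zmpste24-/- mice, the injured lungs had 10.03, 9.59 and 10.13 and the saline lungs of the same set 9.49, 9.46 and 9.33. In WT mice of 82 weeks the injured lungs had 9.14, 8.85 and 8.78 and the saline lungs 8.50, 8.65 and 8.90, and in WT mice of 16 weeks the injured lungs had 9.31, 9.17 and 9.26 and the saline lungs 8.61, 9.37 and 9.39. Within sets, injured and saline lungs thus separated in both Zmpste24-/- ages and overlapped in both WT ages. The remaining saline lungs measured 9.61, 9.26 and 9.48 in 7-week Zmpste24-/- mice of set 1, of which the highest lay above the lowest injured 7-week lung of set 2, and 9.15, 8.48 and 9.25 in 7-week WT mice.

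By group mean, the injured 16-week Zmpste24-/- lungs (10.32 ± 0.06, SD, n = 3) stood above the injured 7-week Zmpste24-/- lungs (9.92 ± 0.29) with no overlap, and every later pair of neighbours in the order overlapped. The 5 Zmpste24-/- groups had means of 9.38 or more and the 5 WT groups means of 9.25 or less, a description over groups that differ in age, injury and set and that was not tested.

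Of the 9 genes, 4 were called after bleomycin in 16-week Zmpste24-/- lungs and all 4 rose (10.6% of all genes were called in this comparison). Nox4 rose by 0.94 (standard error 0.23, adjusted p = 0.00926) and Nqo1 by 1.24 (0.15, adjusted p = 8.33e-06), with Gclc at 0.85 (0.18, adjusted p = 0.00358) and Gclm at 0.65 (0.21, adjusted p = 0.0428). Without saline replicate 3, Nox4 stood at 0.61 (adjusted p = 0.0878) and Gclm at 0.22 (adjusted p = 0.383), both no longer called. Nox4 also lost its call with array weights, with only the groups compared and without the 4 doubted arrays (adjusted p 0.0963 to 0.202). Gclm also lost its call without any one of the injured replicates (adjusted p 0.0936 to 0.115), while Nqo1 and Gclc stayed called with each array left out (lowest values 1.14 and 0.55). Gclc lost its call with only the groups compared (adjusted p = 0.231). In 7-week Zmpste24-/- lungs, 2 of the 9 were called, Ncf1 and Gclc, both higher after bleomycin (4.73% of all genes called). All saline lungs of this comparison had high squamous and skeletal muscle markers, and the part of that tissue in the differences was not tested. None of the 9 was called in 82-week WT lungs (1.01% of all genes) or in 16-week WT lungs (0.721%), where 0 and 4 of them had an unadjusted p under 0.05.

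**Figure D1:**
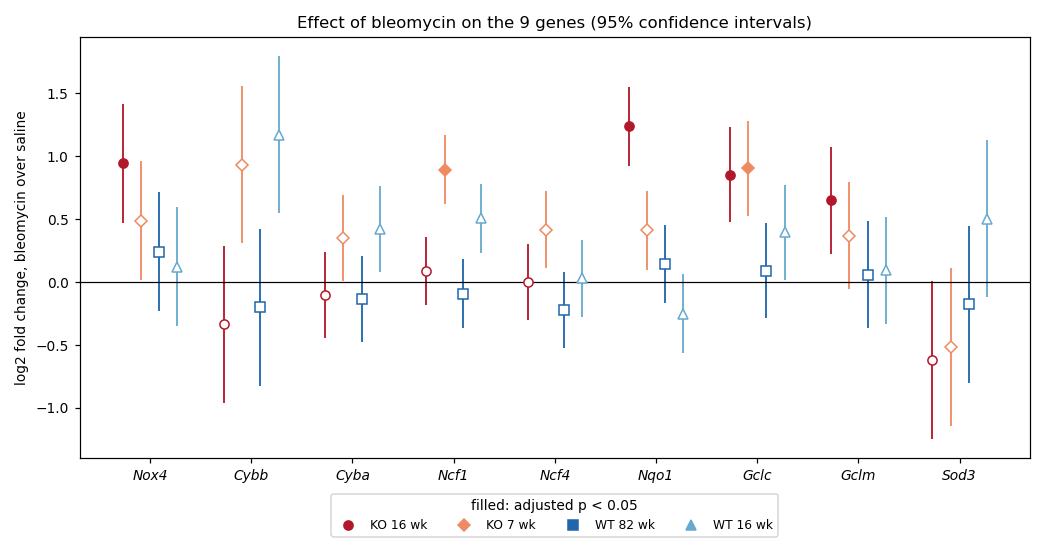
Log2 fold change of bleomycin over saline (y axis) for the 9 genes (x axis) in 4 strata of genotype and age, with 95% confidence intervals and filled points where the adjusted p is under 0.05. Nqo1 stands at 1.24 in 16-week Zmpste24-/- lungs and at 0.14 and -0.25 in 82-week and 16-week WT lungs.

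The bleomycin effect on Nox4 was 0.49 (95% confidence interval 0.02 to 0.96, adjusted p = 0.308) in 7-week Zmpste24-/- lungs, 0.24 (-0.23 to 0.71, adjusted p = 0.787) in 82-week WT lungs and 0.12 (-0.352 to 0.595, adjusted p = 0.949) in 16-week WT lungs. The differences between these effects were tested directly. The effect on Nox4 in 16-week Zmpste24-/- lungs exceeded that in 82-week WT lungs by 0.70 (0.03 to 1.37, adjusted p = 0.282) and that in 16-week WT lungs by 0.82 (0.15 to 1.49, adjusted p = 0.16), and neither difference was called. The injured lungs themselves did differ. Nox4 was 1.40 higher (standard error 0.23, adjusted p = 0.000141) in injured 16-week Zmpste24-/- than in injured 82-week WT lungs, which lie in different sets, and 1.08 higher (0.23, adjusted p = 0.00158) than in injured 16-week WT lungs of the same set. Both calls held with each array left out and under every setting tried, with a set term included. That term rests only on the saline 7-week Zmpste24-/- lungs, the group present in both sets. These lungs include the arrays with Zmpste24 near the WT level and those with high squamous markers. A set difference cannot be told apart from differences between these arrays. With saline, the Zmpste24-/- to WT difference was 0.26 at 16 weeks in set 1 (-0.22 to 0.73, adjusted p = 0.758), 0.47 at 7 weeks in set 2 (-0.005 to 0.942, adjusted p = 0.474) and 0.70 for 16-week Zmpste24-/- over 82-week WT lungs (adjusted p = 0.0422), with overlapping arrays. That last call is across sets and was lost with the set as a term (adjusted p = 0.306) and on leaving out, in turn, Zmpste24-/- saline replicate 1 or 2 or WT saline replicate 1 or 2 (adjusted p 0.108 to 0.172).

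Nqo1 (chromosome 8, 107388225 to 107403205) had the clearest response of the 9. It measured 7.33, 7.21 and 7.47 in injured and 6.25, 6.16 and 5.90 in saline 16-week Zmpste24-/- lungs. The injured values were above those of all other 27 arrays. Injured 7-week Zmpste24-/- lungs came next with 6.85, 6.56 and 6.84, against 6.30, 6.32 and 6.41 in saline lungs of the same set. Injured and saline lungs again did not overlap, yet the difference of 0.41 (standard error 0.15) was not called (adjusted p = 0.144). WT lungs gave 6.73, 6.07 and 6.03 with bleomycin and 6.22, 6.12 and 6.06 with saline at 82 weeks, and 6.37, 6.05 and 5.93 with bleomycin and 6.45, 6.31 and 6.33 with saline at 16 weeks. Only replicate 1 of the injured 82-week WT lungs reached the range of the injured 7-week Zmpste24-/- lungs. The saline lungs of 7-week mice measured 6.22, 6.21 and 6.32 in Zmpste24-/- mice of set 1 and 6.01, 6.33 and 6.25 in WT mice.

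**Figure D2:**
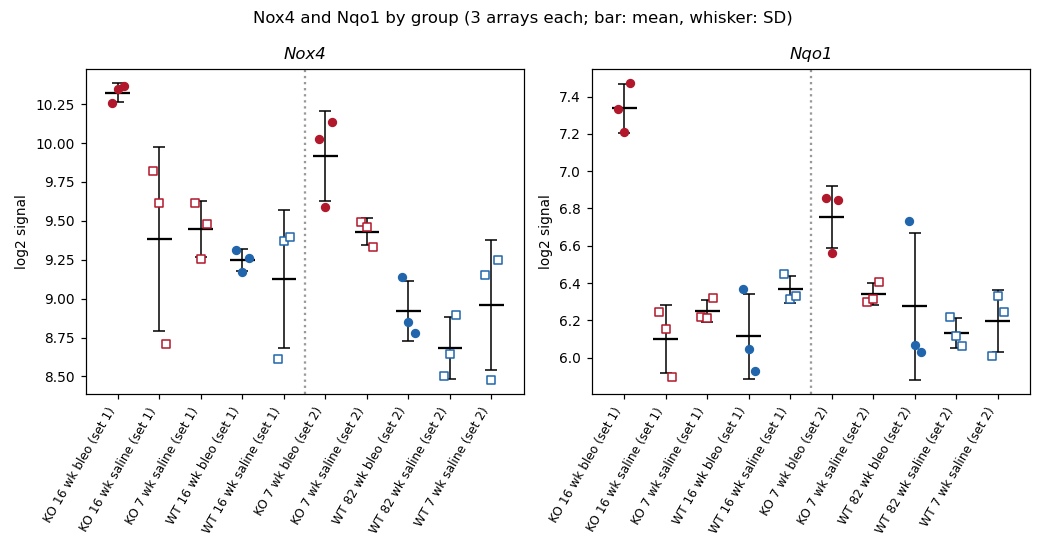
Log2 signal (y axes) of Nox4 and Nqo1 in the 10 groups (x axes), 3 arrays each, with group mean and SD; KO marks Zmpste24-/- in red and WT is blue, filled circles are bleomycin (bleo) and open squares saline, and the dotted line parts set 1 from set 2. The injured 16-week Zmpste24-/- lungs lie at 10.26 to 10.37 for Nox4 and 7.21 to 7.47 for Nqo1.

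The bleomycin effect on Nqo1 was larger in 16-week Zmpste24-/- than in 82-week WT lungs by 1.095 (standard error 0.215, adjusted p = 0.00901) and than in 16-week WT lungs by 1.49 (0.215, adjusted p = 0.000262). In the first of these tests Nqo1 was the 1 of the 9 genes called (1.39% of all genes), and in the second Nqo1 and Cybb were the 2 called (4.37%), Cybb in the opposite direction. Against 7-week Zmpste24-/- lungs the effect on Nqo1 was larger by 0.83 (0.215, adjusted p = 0.0427), but this call was lost in 9 of the 12 fits that left out 1 array (adjusted p 0.0607 to 0.16) and without the 3 arrays whose Zmpste24 lay near the WT level (adjusted p = 0.276). In that comparison 2 of the 9 were called, Nqo1 and Ncf1 (1.7% of all genes). None of the 9 was called between the effects in 7-week Zmpste24-/- and 16-week WT lungs (1.19% of all genes), where 2 of them, Nqo1 (0.66, 0.22 to 1.10, adjusted p = 0.159) and Sod3 (-1.02, -1.90 to -0.13, adjusted p = 0.367), had an unadjusted p under 0.05.

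Of 8 neutrophil markers, 0 were called between injured 16-week Zmpste24-/- and injured 82-week WT lungs (14.1% of all genes called). Against injured 16-week WT lungs 7 were called, all higher (15.8%). Nqo1 was 1.06 higher in injured 16-week Zmpste24-/- than in injured 82-week WT lungs (standard error 0.15, adjusted p = 2.59e-05) and 1.22 higher than in injured 16-week WT lungs (0.15, adjusted p = 3.01e-06). Between saline lungs it was not called in any comparison of genotype or age, with differences from -0.265 for 16-week Zmpste24-/- over 16-week WT lungs (adjusted p = 0.607) to 0.15 for 7-week Zmpste24-/- over 7-week WT lungs (adjusted p = 0.891). Neutrophil markers rose after bleomycin as well. Their mean was 8.25 to 8.42 in injured and 6.64 to 7.04 in saline 16-week Zmpste24-/- lungs, where 7 of 8 rose (10.6% of all genes called). It was 8.10 to 8.50 in injured and 7.00 to 7.07 in saline 82-week WT lungs, where 7 of 8 rose as well (1.01%) and injured lungs had Nqo1 at 6.03 to 6.73. In 16-week WT lungs it was 6.28 to 6.68 with bleomycin and 6.21 to 6.59 with saline. The part of neutrophils in the Nqo1 level was not tested.

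Over the 30 arrays, the 5 genes whose values ran most like those of Nqo1 were Sh3d21, Gm4285, Pink1, Galnt15 and Pde9a (Pearson r 0.872 to 0.902), and those most like Nox4 were Omd, Arrdc3, C1qtnf7, E030003E18Rik and Hsd11b1 (0.912 to 0.937). Omd codes for osteomodulin, a small leucine-rich proteoglycan of the matrix, and Hsd11b1 for the enzyme that regenerates active glucocorticoid. Nox4 had r 0.114 with the mean of 10 fibroblast and myofibroblast markers and 0.779 with that of 5 alveolar type 1 markers. The latter was the highest r among the marker lists, before alveolar type 2 (0.452) and neutrophil markers (0.400). After bleomycin in 16-week Zmpste24-/- lungs, 1 of those 10 rose, 2 fell and 0 of those 5 were called (10.6% of all genes called). The cells behind the Nox4 level were not tested. The points share their groups and sets, so that these values describe likeness and no more.

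The 4 phagocyte oxidase subunits followed another pattern and were highest in 82-week WT lungs, with or without bleomycin. Cybb, the gp91phox catalytic core (chromosome X, 9435252 to 9487766), measured 10.68, 10.75 and 10.88 in saline lungs of 82-week WT mice and 9.16, 8.35 and 9.56 in saline lungs of 7-week WT mice. Cyba (chromosome 8, 122424771 to 122432940) had 9.87, 9.98 and 9.89 in the older and 8.63, 8.45 and 8.71 in the younger mice. The ages did not overlap for either gene.
For the cytosolic subunits, Ncf1 (chromosome 5, 134220053 to 134229628) had 8.71, 8.76 and 8.79 at 82 weeks and 7.76, 7.76 and 7.73 at 7 weeks, and Ncf4 (chromosome 15, 78244164 to 78262582) had 8.16, 8.22 and 8.02 at 82 weeks and 7.04, 7.39 and 7.33 at 7 weeks. These 4 were the genes called of the 9 (8.12% of all genes called), and all rose with age in WT saline lungs, Cybb by 1.74 (standard error 0.30, adjusted p = 0.000398), Cyba by 1.32 (0.17, adjusted p = 1.09e-05), Ncf1 by 1.00 (0.13, adjusted p = 2.07e-05) and Ncf4 by 0.88 (0.15, adjusted p = 0.000273).

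In Zmpste24-/- mice, the saline lungs of 16 weeks had 9.39, 9.41 and 8.56 for Cybb and those of 7 weeks in the same set 9.29, 8.82 and 8.46. Cyba had 8.76, 8.75 and 8.42 at 16 weeks and 8.95, 8.79 and 8.78 at 7 weeks. Cybb overlapped between the ages and Cyba was lower at 16 weeks without overlap (difference -0.20, adjusted p = 0.627). Neither gene was called, and none of the 9 was called between these ages (1.83% of all genes), with 1 of the 9, Ncf1, at an unadjusted p under 0.05 (difference 0.435, adjusted p = 0.096). The difference between both age effects was tested as well, Zmpste24-/- minus WT. It called 3 of the 9 (5.69% of all genes): Cyba at -1.51 (standard error 0.24, adjusted p = 0.000481), Cybb at -1.48 (0.43, adjusted p = 0.0408) and Ncf4 at -0.73 (0.21, adjusted p = 0.0394). The call of Cyba held in all 12 fits without 1 array, whereas that of Cybb was lost in 7 of them (adjusted p 0.0652 to 0.154) and that of Ncf4 in 9 (0.0527 to 0.0942). Without the 4 arrays in doubt, the 3 with Zmpste24 near the WT level and saline replicate 3, Cyba stood at -1.425 (adjusted p = 0.00571), Cybb at -1.22 (adjusted p = 0.182) and Ncf4 at -0.82 (adjusted p = 0.054). The Zmpste24-/- ages are 16 and 7 weeks and the WT ages 82 and 7 weeks, and each age effect lies in its own set.

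**Figure D3:**
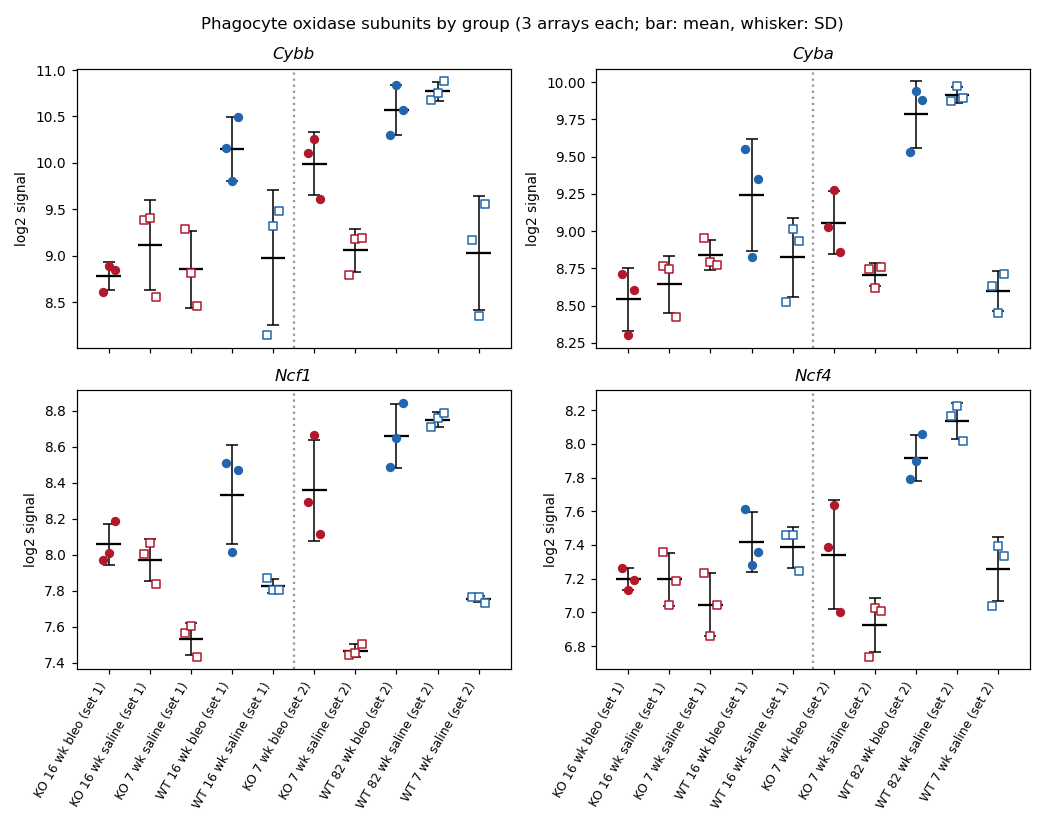
Log2 signal (y axes) of Cybb, Cyba, Ncf1 and Ncf4 in the 10 groups (x axes), drawn as for Nox4 and Nqo1: 3 arrays each with mean and SD, red for Zmpste24-/- (KO), blue for WT, filled for bleomycin and open for saline. All 4 genes are highest in 82-week WT lungs, with Cybb at 10.30 to 10.88 there.

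After injury, Cybb was high in some groups and low in others. Injured 16-week WT lungs had Cybb at 10.16, 9.80 and 10.49, against 8.15, 9.32 and 9.48 in saline lungs, and injured 7-week Zmpste24-/- lungs had 10.10, 10.26 and 9.61, against 8.79, 9.18 and 9.20. Both pairs were apart without overlap, but the differences of 1.17 (0.55 to 1.79, adjusted p = 0.0633) and 0.93 (0.31 to 1.56, adjusted p = 0.081) missed the threshold. Injured 16-week Zmpste24-/- lungs had the lowest Cybb mean of the 10 groups, with 8.62, 8.89 and 8.84 against 9.39, 9.41 and 8.56 in saline lungs (difference -0.34, -0.96 to 0.29, adjusted p = 0.523). In 82-week WT lungs Cybb was 10.30, 10.84 and 10.57 with bleomycin and 10.68, 10.75 and 10.88 with saline (difference -0.20, -0.82 to 0.42, adjusted p = 0.887).

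Ncf1 was the subunit called after injury, in 7-week Zmpste24-/- lungs only among the 4 strata. It measured 8.29, 8.67 and 8.12 in injured and 7.44, 7.46 and 7.51 in saline lungs. The rise of 0.89 (standard error 0.13, adjusted p = 0.000103) held with each array left out. It stood at 0.92 without the arrays with Zmpste24 near the WT level, a fit that leaves 1 saline array. These saline lungs had squamous means of 7.97 to 8.16 and skeletal muscle means of 8.07 to 8.32. The injured lungs had 4.56 to 4.83 and 5.16 to 5.39. The part of this tissue in the Ncf1 difference was not tested. Its change was 0.51 in 16-week WT lungs (0.23 to 0.78, adjusted p = 0.0703), 0.09 in 16-week Zmpste24-/- lungs (-0.19 to 0.36, adjusted p = 0.731) and -0.09 in 82-week WT lungs (-0.37 to 0.18, adjusted p = 0.882). The effect in 16-week Zmpste24-/- lungs was smaller than that in 7-week Zmpste24-/- lungs (difference -0.80, standard error 0.19, adjusted p = 0.0226), a call lost in 5 of 12 fits without 1 array (adjusted p 0.0522 to 0.105) and without the arrays with Zmpste24 near the WT level (-0.83, adjusted p = 0.152). For Cybb, the effect in 16-week Zmpste24-/- lungs differed from that in 16-week WT lungs by -1.51 (0.43, adjusted p = 0.0424), and this call was lost in 8 of 12 fits without 1 array (adjusted p 0.0678 to 0.132), with values from -1.79 to -1.09, and with high-Xist arrays as a term (-1.62, adjusted p = 0.0687).

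Set side by side, injured 16-week Zmpste24-/- lungs had less Cybb and Cyba RNA than injured WT lungs of either age. Of the 9 genes, 6 were called against 82-week WT lungs (14.1% of all genes), with Nox4 and Nqo1 higher and Cybb (-1.79, standard error 0.30, adjusted p = 0.000199), Cyba (-1.24, 0.17, adjusted p = 1.09e-05), Ncf1 (-0.60, 0.13, adjusted p = 0.00277) and Ncf4 (-0.72, 0.15, adjusted p = 0.00142) lower. Against 16-week WT lungs, in the same set, 5 were called (15.8% of all genes), Nox4 and Nqo1 higher and Cybb (-1.37, 0.30, adjusted p = 0.00217), Cyba (-0.70, 0.17, adjusted p = 0.00378) and Sod3 lower. Ncf1 differed there by -0.275 (standard error 0.134, adjusted p = 0.183) and Ncf4 by -0.22 (-0.53 to 0.08, adjusted p = 0.373). All 11 of these calls held with each array left out and under each alternative except a log2 fold threshold of 1, which left 4 of the 6 and 4 of the 5.

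The saline lungs were compared in the same way. Saline 16-week Zmpste24-/- lungs differed from saline 82-week WT lungs in 6 of the 9 genes (13.7% of all genes), Nox4 higher and Cybb (-1.65), Cyba (-1.27), Ncf1 (-0.78), Ncf4 (-0.94) and Gclc (-1.09) lower, with adjusted p from 1.42e-05 to 0.0005 for the 5 lower ones. With the set as a term, which rests on the saline 7-week Zmpste24-/- lungs alone, Cyba, Ncf1 and Ncf4 stayed called. Cybb (adjusted p = 0.0665) and Gclc (adjusted p = 0.0516) did not. Against saline 16-week WT lungs none of the 9 was called (0.00902% of all genes, 2 in number) and none had an unadjusted p under 0.05. Against 7-week WT lungs, saline 7-week Zmpste24-/- lungs also differed in none of the 9 (2.88% of all genes), with 2 of them, Ncf1 and Ncf4, at an unadjusted p under 0.05 (differences -0.29 and -0.33).

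Markers of macrophages moved with these subunits. Over the 30 arrays, Pearson r of Cybb was 0.965 with the macrophage mean, 0.901 with the mean of 5 monocyte markers and 0.258 with that of 8 neutrophil markers. The neutrophil mean was 8.25 to 8.42 in injured and 6.64 to 7.04 in saline 16-week Zmpste24-/- lungs, where Cybb did not rise. The mean of 10 macrophage markers, all measured, was 7.51 to 7.67 in injured 16-week Zmpste24-/- lungs, 8.26 to 8.69 in injured 7-week Zmpste24-/- lungs, 8.12 to 8.76 in injured 16-week WT lungs and 8.70 to 8.96 in injured 82-week WT lungs. It was 9.01 to 9.11 in saline 82-week WT lungs and 7.26 to 7.99 in all other saline lungs, and no marker was at 0, since array signals have no true 0. Of these markers, 8 of 10 were lower in injured 16-week Zmpste24-/- than in injured 82-week WT lungs (14.1% of all genes called). Against injured 16-week WT lungs 6 were lower and 1 higher (15.8%), and 8 of 10 rose with age in WT mice (8.12%). After bleomycin in 16-week Zmpste24-/- lungs 1 rose and 1 fell (10.6%). In whole lungs, fewer cells of a type and less RNA per cell cannot be told apart. Over the 30 arrays, the genes most like Cybb were Ccl9, a chemokine, Adgre1, which codes for the macrophage antigen recognised in most mouse macrophage stains and belongs to the marker list, Plin2, Tbxas1 and Mpeg1 (Pearson r 0.944 to 0.957).

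**Figure D4:**
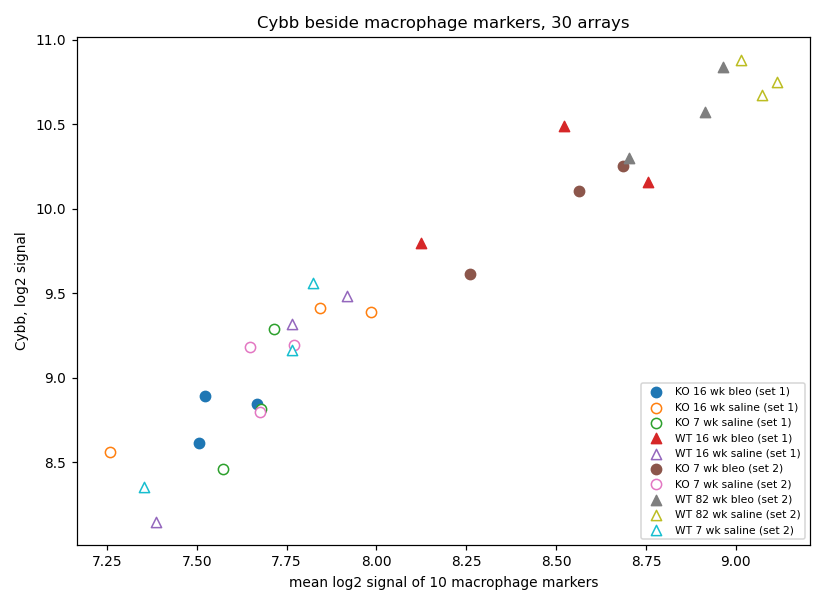
Log2 signal of Cybb (y axis) against the mean log2 signal of 10 macrophage markers (x axis) in the 30 arrays; circles are Zmpste24-/- (KO) and triangles WT, filled for bleomycin and open for saline. Saline 82-week WT lungs sit at 9.01 to 9.11 on the x axis and at 10.68 to 10.88 for Cybb, and injured 16-week Zmpste24-/- lungs at 7.51 to 7.67 and 8.62 to 8.89.

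Of the glutathione genes, Gclc rose after injury in Zmpste24-/- lungs of both ages and Gclm was called at 16 weeks alone, a call lost in 4 of the 6 fits without 1 array. The call of Gclc at 16 weeks was lost with only the groups compared (adjusted p = 0.231). Gclc (chromosome 9, 77754535 to 77794489) measured 10.20, 10.21 and 10.26 in injured and 9.82, 9.54 and 8.76 in saline 16-week Zmpste24-/- lungs, and 10.68, 10.60 and 10.53 in injured and 9.54, 9.80 and 9.76 in saline 7-week Zmpste24-/- lungs. No injured value overlapped its saline group. The rise in 7-week mice was 0.90 (standard error 0.18, adjusted p = 0.0028), and it stood at 1.06 (adjusted p = 0.0626) without the 2 saline arrays whose Zmpste24 was near the WT level, which leaves 1 saline array that is assumed to vary like the other groups. In 16-week WT lungs Gclc was 10.19, 10.06 and 10.11 with bleomycin and 9.58, 9.79 and 9.80 with saline, also apart, with a difference of 0.40 (0.02 to 0.77, adjusted p = 0.485), and in 82-week WT lungs 10.62, 10.63 and 10.40 with bleomycin and 10.46, 10.43 and 10.49 with saline (difference 0.09, -0.29 to 0.47, adjusted p = 0.921).
The effect on Gclc in 16-week Zmpste24-/- lungs exceeded that in 82-week WT lungs by 0.76 (0.228 to 1.296, adjusted p = 0.138) and that in 16-week WT lungs by 0.455 (-0.08 to 0.99, adjusted p = 0.368), neither of them called.

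Gclm (chromosome 3, 122245487 to 122267215), whose promoter above holds the response element core, measured 8.44, 8.47 and 8.40 in injured and 8.14, 8.29 and 6.93 in saline 16-week Zmpste24-/- lungs. The value of 6.93, in saline replicate 3, is the lowest of Gclm in the series, and the other 29 arrays lie from 7.96 to 8.67. Injured 7-week Zmpste24-/- lungs had the highest group mean, with 8.67, 8.59 and 8.55 against 8.14, 8.23 and 8.34 in saline lungs (difference 0.37, -0.06 to 0.79, adjusted p = 0.453). In WT lungs the changes were 0.06 at 82 weeks and 0.09 at 16 weeks, with overlapping values (adjusted p = 0.959 and 0.958).

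Sod3 (chromosome 5, 52363804 to 52369738) was lower in injured 16-week Zmpste24-/- than in injured 16-week WT lungs. It measured 9.30, 8.89 and 9.20 in injured 16-week Zmpste24-/- lungs and 10.52, 10.59 and 10.17 in injured 16-week WT lungs, a difference of -1.29 (standard error 0.31, adjusted p = 0.00359) that held with each array left out and with high-Xist arrays as a term (-1.303, adjusted p = 0.00914). The 2 groups were apart by more than their spread. Against injured 82-week WT lungs, with 9.47, 8.88 and 8.78, there was overlap (difference 0.09, -0.54 to 0.71, adjusted p = 0.891). The bleomycin effect on Sod3 was -0.62 in 16-week Zmpste24-/- lungs (-1.25 to 0.01, adjusted p = 0.201), -0.52 in 7-week Zmpste24-/- lungs (-1.14 to 0.11, adjusted p = 0.49), -0.18 in 82-week WT lungs (adjusted p = 0.901) and 0.50 in 16-week WT lungs (-0.12 to 1.13, adjusted p = 0.679), and none of these was called. Saline lungs varied widely, with 9.69, 10.45 and 9.12 in 16-week Zmpste24-/- and 9.36, 9.97 and 10.43 in 16-week WT lungs. The mean of 10 fibroblast markers was 9.16 to 9.19 in injured 16-week Zmpste24-/- lungs and 9.68 to 9.96 in injured 16-week WT lungs, and that of 6 endothelial markers 9.90 to 9.92 in the injured Zmpste24-/- and 9.98 to 10.35 in the injured WT lungs. Their part in the Sod3 level was not tested.

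**Figure D5:**
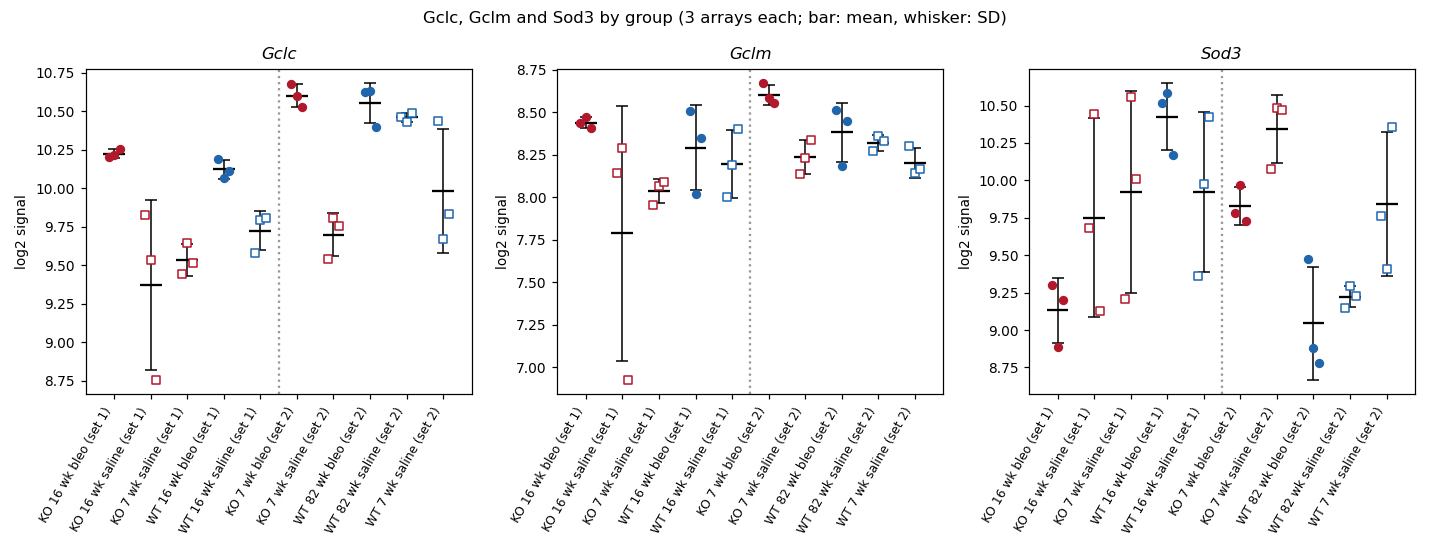
Log2 signal (y axes) of Gclc, Gclm and Sod3 in the 10 groups (x axes), drawn as for the genes before: 3 arrays each with mean and SD, red for Zmpste24-/- (KO), blue for WT, filled for bleomycin and open for saline. The saline 16-week Zmpste24-/- lung at 6.93 is the lowest Gclm value, and injured 16-week Zmpste24-/- lungs lie at 8.89 to 9.30 for Sod3.

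Other genes of the same pathways were examined as 4 lists. After bleomycin in 16-week Zmpste24-/- lungs, 9 of 26 measured genes of the glutathione and thioredoxin systems rose and 0 fell (median 0.26, against -0.01 over all genes, of which 10.6% were called), among them Txnrd1, thioredoxin reductase (0.76, adjusted p = 0.000834), Gsr, glutathione reductase (0.75, adjusted p = 0.00156), and the glutathione transferases Gsta4 (0.77, adjusted p = 0.00228) and Gsta3 (1.015, adjusted p = 0.00748). Of 18 measured Nrf2-related genes, 5 rose and 0 fell (median 0.29), namely Nqo1, Gclc, Gclm, Txnrd1 and the aldehyde oxidase Aox1 (0.53, adjusted p = 0.00601), while 13 others, Hmox1 and Slc7a11 included, were not called. Of 13 measured oxidase genes, Nox4 rose and Rac2, the Rac GTPase of blood cells, fell (-0.86, adjusted p = 0.000954). None of 13 superoxide dismutases, catalase and peroxidases was called in limma (median 0.31), with 4 of them at an unadjusted p under 0.05. Without the 4 arrays in doubt, 5 of the 26 glutathione and thioredoxin genes and 3 of the 18 Nrf2-related genes were called, all higher, and 0 oxidase genes rose and 1 fell, with 1445 of all 22180 genes called.
In 7-week Zmpste24-/- lungs, 4 of the 26 and 3 of the 18 rose (4.73% of all genes called), with the cystine transporter Slc7a11 at 1.35 (adjusted p = 0.000703), Txnrd1 at 0.57 (adjusted p = 0.0124) and Gsr at 0.53 (adjusted p = 0.0327). In 82-week WT lungs 0 of the genes on the 4 lists were called in limma, where 1.01% of all genes were called. At an unadjusted p under 0.05 were 1 oxidase gene, 0 dismutases or peroxidases, 3 glutathione and thioredoxin genes and 3 Nrf2-related genes. In 16-week WT lungs 1 was called, Gstm1, which fell (-0.45, adjusted p = 0.026), with 0.721% of all genes called. Both counts are small beside lists of this size at such shares.

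The difference between effects was called for few of these genes, and for 1.19% to 4.37% of all genes in the comparisons that follow. Txnrd1 rose more in 16-week Zmpste24-/- than in 82-week WT lungs (0.94, adjusted p = 0.0139). Against 16-week WT lungs, Gsta4 (1.38, adjusted p = 0.000861), Gsta3 (1.91, adjusted p = 0.00179), Mgst1 (0.805, adjusted p = 0.0103), Txnip (0.85, adjusted p = 0.0177), Aox1 (0.87, adjusted p = 0.00477) and Sod1, the cytosolic dismutase (0.87, adjusted p = 0.0132), responded more and Rac2 less (-0.94, adjusted p = 0.017). Against 7-week Zmpste24-/- lungs, Slc7a11 (-1.39, adjusted p = 0.03) and Rac2 (-1.14, adjusted p = 0.00595) responded less and Gsta4 more (0.84, adjusted p = 0.0493). The calls of Slc7a11 and Gsta4 were lost without the 4 arrays in doubt. That fit leaves 1 saline 7-week Zmpste24-/- array in set 2 and called fewer of all genes too. Of the effects in 7-week Zmpste24-/- and 16-week WT lungs, those on Gsta3 (1.70, adjusted p = 0.0112), Mgst1 (0.75, adjusted p = 0.0328) and Aox1 (0.74, adjusted p = 0.0289) differed. All of these calls were lost without the arrays in doubt, again with 1 saline 7-week array left in set 2 and fewer of all genes called.

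In injured lungs, Gsta3 measured 9.21, 9.46 and 9.22 in 16-week Zmpste24-/- and 7.54, 7.11 and 7.52 in 16-week WT mice, a gap of 1.905 (adjusted p = 3.75e-06) with no overlap. Sod1 was higher there too (0.72, adjusted p = 0.000635), as were Txnip (0.95), Gsta4 (0.92), Mgst1 (0.66), Aox1 (0.67) and Bach1, a repressor of Nrf2 targets (0.41, adjusted p = 0.0344), and Rac2 (-0.72), Gpx7 (-0.51) and Prdx2 (-0.64) were lower. Against injured 82-week WT lungs, Sod1 (0.70, adjusted p = 0.00117), Txnip (0.57), Gsta3 (0.83) and Aox1 (0.44) were higher and Slc7a11 (-1.56, adjusted p = 6.86e-05), Rac2 (-0.935), Hmox1, heme oxygenase (-0.91) and Taldo1 (-0.59) lower.

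With age in WT saline lungs, 6 of the 18 Nrf2-related genes rose and 1 fell (8.12% of all genes called), although Nqo1 itself stood at -0.06 (-0.38 to 0.25, adjusted p = 0.899). Slc7a11 was 6.47, 6.35 and 6.07 at 82 weeks and 4.62, 4.51 and 4.44 at 7 weeks (difference 1.77, adjusted p = 2.34e-05), and Hmox1 (1.65, adjusted p = 5.95e-05), Srxn1 (0.70, adjusted p = 0.00108) and Pgd (0.62, adjusted p = 0.00775) were higher as well. Of the glutathione and thioredoxin genes, 5 rose and 2 fell, with Gsr at 0.63 (adjusted p = 0.00628) and Gstm1 at -0.52 (adjusted p = 0.000849). The peroxidase Gpx1 rose by 0.95 (adjusted p = 0.00463) and Rac2 by 0.54 (adjusted p = 0.0328). In Zmpste24-/- saline lungs, Rac2 (0.68, adjusted p = 0.0244) and Aox1 (0.51, adjusted p = 0.0253) were higher and Gpx8 (-0.96, adjusted p = 0.0158) and Glrx5 (-0.59, adjusted p = 0.0116) lower at 16 than at 7 weeks. Of these 4 lists, 1 gene, Nrf2-related, was called between these ages without the 4 arrays in doubt, with 68 of all 22180 genes called. Saline 16-week Zmpste24-/- lungs had 12 of the 18 Nrf2-related genes lower than saline 82-week WT lungs and 0 higher (13.7% of all genes called, 2266 lower and 764 higher), among them Hmox1 (-1.95, adjusted p = 6.87e-06) and Srxn1 (-0.79, adjusted p = 0.000238), in a comparison across sets. Without the 4 arrays in doubt 6 were lower and 0 higher, with 2087 of all 22180 genes called. At 7 weeks, Aox1 alone of the 4 lists was called between Zmpste24-/- and WT saline lungs (-0.73, adjusted p = 0.000671).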

How the data were processed

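Whole-lung RNA of 30 mouse lung samples was labelled as biotinylated cRNA and hybridized to Affymetrix whole-transcript arrays. The authors deposited 1 table of log2 signals per probe set (41345 probe sets), whose normalization (method not given in the sources used here) and annotation release stay unknown. The labels' processing notes name limma. The array medians lay between 5.95 and 6.19. Of the probe sets, 23521 named 1 gene, 1820 several and 16004 none, and only the first were used. Where a gene had several (1082 genes), the one brightest on average was kept, which left 22180 genes. Symbols were matched to RefSeq (23328 found, 0 changed).

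The 10 group means were fitted in limma 3.58.1 (R 4.3.3) without covariates. The comparisons were contrasts of these means, with Benjamini-Hochberg adjustment over the 22180 genes for each and a call at an adjusted p under 0.05. Confidence intervals are at 95%. Genes that run like a member were the 5 with the highest Pearson r over the 30 arrays. The members and the gene and marker lists were chosen with earlier results of these data known. The named genes are the 9 members and, for each pathway list and comparison, up to 4 further called genes by the smallest adjusted p.

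The fit was tested on simulated data for the bleomycin effect in 16-week Zmpste24-/- lungs, with 22180 genes: of 50 genes changed by 0.5, 1, 2 and 3 on the log2 scale, 13, 42, 49 and 50 were called, as were 8 of 21980 unchanged genes. The simulated noise was normal and independent, with the same spread of a gene in all groups. It held no array that stands apart, as saline replicate 3 does, so these counts do not give the error rates in the real arrays. Alternatives were quantile normalization, median centring, a filter on dim genes (mean log2 of 5.2, 16615 genes left), the mean of probe sets, trended robust variances, array weights, a fit of only the groups compared, the replicate number as a block, the set as a term and as a random block, all 6 saline arrays of 7-week Zmpste24-/- lungs, a fold threshold (log2 of 1), and leaving out each array. After the data were seen, both comparisons of effects between Zmpste24-/- ages and between age effects, the exclusion of doubted arrays (also for the lists) and a term for arrays with high Xist were added. For the set as a term or random block, the saline 7-week Zmpste24-/- arrays of both sets were taken as 1 group. The set term is estimated from these arrays alone, some of them in doubt. As a random block, the set gave a correlation of -0.00621. The number of arrays, 3 a group, limits the precision.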

Additional observations from a re-analysis of the deposited data

Results flagged for a closer look

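The differences below are those of the 9 genes for which the test of the difference between effects was itself called (limma, adjusted p under 0.05 over all genes). The bleomycin effect on Nqo1 was larger in 16-week Zmpste24-/- than in 82-week WT lungs by 1.095 (adjusted p = 0.00901) and than in 16-week WT lungs by 1.489 (adjusted p = 0.000262), and both kept their call with each array left out. It was larger than in 7-week Zmpste24-/- lungs by 0.827 (adjusted p = 0.0427), a call that 9 of 12 fits without 1 array lost. The effect on Cybb in 16-week Zmpste24-/- lungs differed from that in 16-week WT lungs by -1.506 (adjusted p = 0.0424), lost in 8 of 12 such fits, and the effect on Ncf1 differed between 16-week and 7-week Zmpste24-/- lungs by -0.803 (adjusted p = 0.0226), lost in 5 of 12. The age effect in Zmpste24-/- lungs minus that in WT lungs was -1.512 for Cyba (adjusted p = 0.000481), -1.479 for Cybb (adjusted p = 0.0408) and -0.728 for Ncf4 (adjusted p = 0.0394), of which Cyba alone kept its call in all 12 fits without 1 array.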

How the results depend on the processing

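Of the 35 calls of the 9 genes, 21 stayed called under every alternative other than the fold threshold and 14 were lost under at least 1 of these. The numbers of the 9 genes called that moved by over 1.5 times, or to or away from 0, were as follows, and smaller moves are left out. Numbers in parentheses after a setting are the calls over all genes, which were not counted for fits without 1 array. For the bleomycin effect in 16-week Zmpste24-/- lungs (4 called, 2350 over all genes), array weights gave 2 (1070) and a fit of only the groups compared 1 (123). A log2 fold above 1 as well gave 1 (297), leaving out the 4 doubted arrays 2 (1445), and fits without 1 array 2 to 4. For 7-week Zmpste24-/- lungs (2 called), array weights gave 9, the set as a random block 4, all 6 saline arrays 4 and the fold threshold 0. Fewer of the 9 were called without the arrays with Zmpste24 near the WT level. That fit leaves 1 saline array and called fewer of all genes too. Over all genes, the main fit of 7-week Zmpste24-/- lungs called 1049, array weights 4925, the random block 1666, all 6 saline arrays 1646 and the fold threshold 335. For 16-week WT lungs (0 called, 160 over all genes), quantile normalization gave 1 (259), the filter on dim genes 2 (240), array weights 2 (389) and the Xist term 1 (134), with 0 to 2 without 1 array. For saline 16-week Zmpste24-/- over 82-week WT lungs (6 called, 3030 over all genes), only the groups compared (412), the set as a term (595) and the fold threshold (486) each gave 3. For age in WT lungs (4 called, 1802 over all genes), array weights gave 7 (4821) and the fold threshold 2 (416). For age in Zmpste24-/- lungs (0 called, 407 over all genes), quantile normalization (595), the random block (1674) and all 6 saline arrays (1608) each gave 1. For the bleomycin effect in 16-week Zmpste24-/- minus that in 82-week WT lungs (1 called, 309 over all genes), only the groups compared gave 0 (66), with 1 to 2 without 1 array. For the difference from 16-week WT lungs (2 called, 969 over all genes), only the groups compared (155), the replicate block (841) and the Xist term (503) each gave 1, with 1 to 3 without 1 array. For 7-week Zmpste24-/- minus 16-week WT lungs (0 called, 263 over all genes), array weights gave 2 (1478). For the difference of age effects (3 called, 1261 over all genes), only the groups compared (338), leaving out the 4 doubted arrays (684) and the Xist term (1003) each gave 1, with 1 to 4 without 1 array. For 16-week minus 7-week Zmpste24-/- lungs (2 called), only the groups compared and the fold threshold each gave 0 and the Xist term 1, with 0 to 2 without 1 array. Neither call was kept without the doubted arrays (3 or 4). Those fits leave 1 saline 7-week Zmpste24-/- array in set 2 and called fewer of all genes too. Over all genes, this last comparison called 377 in the main fit, 261 with only the groups compared, 278 with the fold threshold and 376 with the Xist term. The cause of these changes was not tested.

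The Nox4 effect in 16-week WT lungs, not called, ran from -0.134 without saline replicate 1 (adjusted p = 0.999) to 0.256 without saline replicate 3. Replicate numbers did not pair the samples (correlations of deviations from -0.382 to 0.28), and with the replicate block the calls of Gclm in 16-week Zmpste24-/- lungs (adjusted p = 0.0533), Nox4 between saline 16-week Zmpste24-/- and 82-week WT lungs (0.0511), Cybb in the difference of bleomycin effects (0.056) and Cybb in the difference of age effects (0.0518) were lost, and no other. With 3 arrays a group, their number limits what small changes could be seen.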
